A study of Rattus norvegicus with 6 samples.

Results

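The genes described are 10 rat genes that move lipid between and within brain cells: the apolipoproteins Apoe and Apod, the sterol exporters Abca1 and Abcg1, the oxysterol enzyme Ch25h, the lipid droplet protein Plin2, the lipase Lpl, the uptake receptor Cd36, and the fatty acid binding proteins Fabp5 and Fabp7. They were taken by symbol from a table of 19382 genes, and all 10 had 1 row each. RNA from brain tissue was sequenced in 6 libraries, of which 3 are labelled control and 3 hypoxia-ischemia (HI). The HI rats, of the SD strain, underwent ischemia-hypoxia for 2.5 h at 7 days of age, and for the controls the labels give no more than a control treatment. No agent other than the injury is given for either group, and brain region, time of sampling after the injury, age of the controls and whether each library is a separate animal are not stated, so the tests measure the spread between these libraries. The design asks which transcripts differ between HI and normal brain.

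Brain cells make their own lipoproteins, because plasma lipoproteins hardly cross the blood-brain barrier. Astrocytes, and microglia once activated, secrete ApoE, and the transporters ABCA1 and ABCG1 load it with cholesterol. Neurons and other cells take the particles up through lipoprotein receptors. Liver X receptors (LXR), nuclear receptors that bind oxysterols and pair with retinoid X receptors, switch on Abca1, Abcg1 and Apoe when a cell holds excess sterol, as phagocytes do after taking up myelin or dead cells. Fat that is not exported is stored as esters in lipid droplets coated by perilipins.

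Library depth ran from 13922663 to 14927469 estimated reads, at which 3 reads equal 0.182 to 0.227 CPM (the library-scaled read count used throughout, with TMM factors). Of 14959 genes tested 2074 passed the threshold of 0.05 on the adjusted p (Benjamini-Hochberg) of edgeR's quasi-likelihood test, that is 13.9%, with 6.83% higher and 7.04% lower in HI. All HI libraries lay above all controls for 21.5% of tested genes and below them for 20.8%, so that 42.3% did not overlap. The number of calls changed when single libraries were left out: it was 0 without control 1, 1 without control 2 and 0 without HI 2 (edgeR, where unadjusted p was below 0.05 for 3962, 4008 and 4175 genes). It was 1694 without control 3, 3689 without HI 1 and 644 without HI 3. Each of these fits has a smaller group, and the loss of power was not separated from the part of the library left out. Choroid plexus markers, summed over 8 genes, reached 2309 CPM in control 2 and 8393 and 15696 CPM in HI 2 and HI 3, against 29.8 and 32.9 CPM in the other controls and 223 CPM in HI 1. Cortical excitatory neuron markers, also 8 genes, summed to 1072 CPM in control 3 against 2659 and 3096 CPM in the other controls and 173 to 306 CPM in HI.

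Of the 10 genes, 2 rose in HI, Abca1 and Ch25h, and 0 fell, where 6.83% and 7.04% of all tested genes did. Ch25h passed the low-count filter through its HI reads, as described below, so the rises are not read against that share. For 8 genes, Ch25h among them, every HI library stood above every control, where 21.5% of tested genes did so. In 6 of these, Apoe, Apod, Abcg1, Plin2, Cd36 and Fabp7, the edgeR adjusted p lay between 0.0534 and 0.0882 and the call was not made. Lpl and Fabp5 overlapped between the groups. The median log2 fold change over the 10 genes was 0.87, and that of all tested genes 0.04. DESeq2, which called 28.1% of all genes with an adjusted p, called these 8 genes, while limma-voom, which called 9.17%, called Abca1 alone. With edgeR the count of called genes among the 10 was 0 without control 1, without control 2 or without HI 2. It was 1 without HI 3 and 5 without HI 1. In these settings, in that order, the unadjusted edgeR p lay below 0.05 for 7, 8, 8, 7 and 8 of the genes. Over all genes the calls were 0, 1, 0, 644 of 15079 tested and 3689 of 15265 tested.

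**Figure D1:**
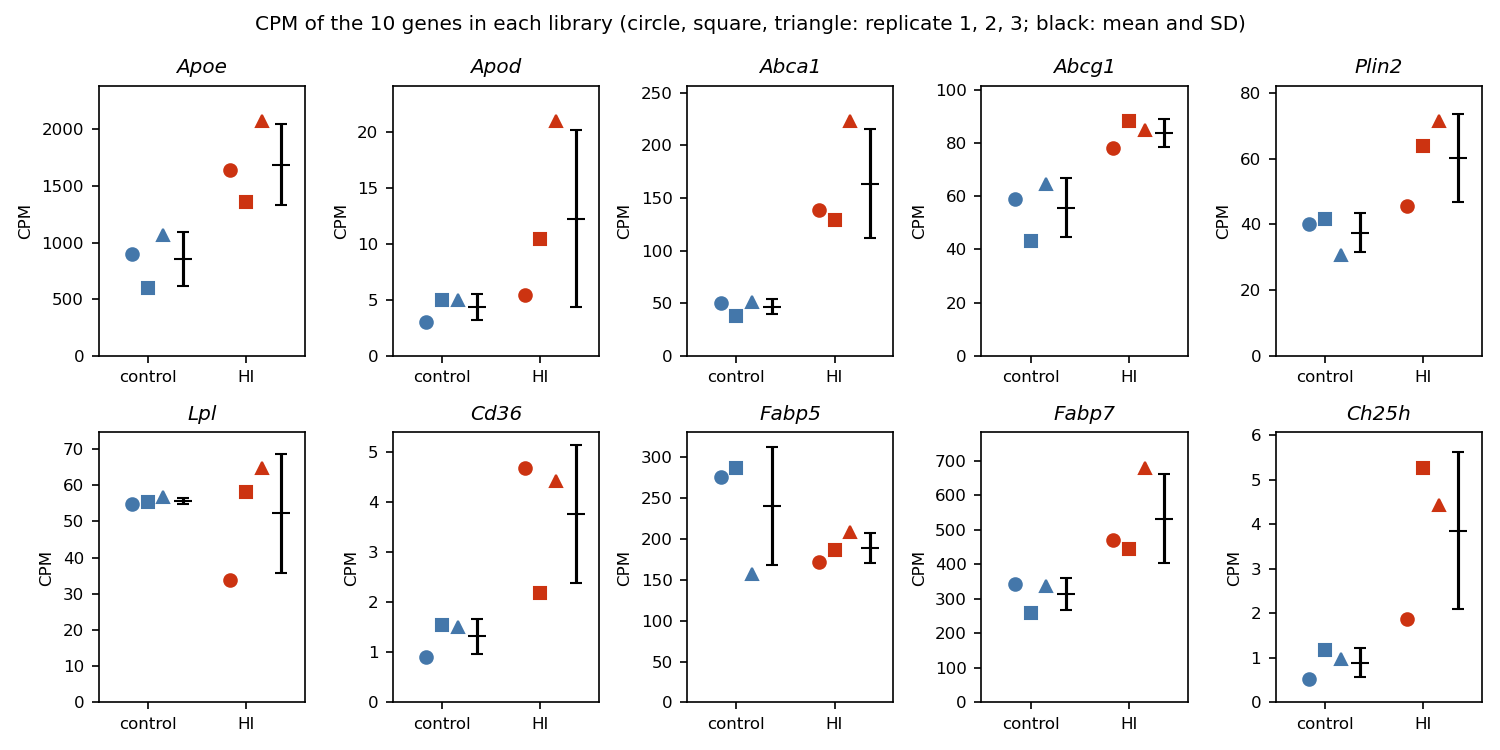
CPM (vertical axis, from 0, a separate scale for each gene) of the 10 genes in the 3 control libraries (blue) and the 3 HI libraries (red), where the marker shape gives the replicate number and the black bar the mean ± SD of the group. The HI points stand above the control points in 8 panels, and overlap them for Lpl and Fabp5.

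Abca1, which moves cholesterol and phospholipid out of the cell onto lipid-poor ApoE, rose 3.51-fold. Its level was 50.4, 38.3 and 51.4 CPM in controls 1 to 3 and 139, 129 and 223 CPM in HI 1 to 3. The lowest HI library thus stood well above the highest control, and HI 3 stood above the other HI libraries. The means were 46.7 ± 7.30 and 164 ± 51.7 CPM (SD, n = 3 each), and the log2 fold change was 1.81 ± 0.24 (SE, edgeR adjusted p = 0.0215). The call was lost without control 1 (edgeR adjusted p = 0.0850), control 2 (0.0924) or HI 2 (0.0753), with log2 fold changes of 1.84, 1.65 and 1.95. Leaving out control 2, HI 2 and HI 3 together, the libraries with the most choroid plexus reads, gave 1.45. This setting was chosen after seeing the data and leaves HI 1 alone in its group, so no spread within HI is measured. For it, only fold changes are given, here and below.

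Since Abca1 and Ch25h were the genes that passed, the promoter sequence of each is shown. Sequences are from RefSeq on the rat build GRCr8, in which 7 of the 10 genes had a promoter entry, and both genes lie on the minus strand. The first Abca1 stretch, chr5:72596564-72596723, covers the bases from 250 to 91 before the annotated start, with a GC box (GGGCGG) and an E-box (CACGTG) in capitals. The second, chr5:72596528-72596543, lies 70 to 55 bases before the start. By another annotated model of Abca1 it lies inside the first exon, and the first stretch was ended before that exon. Read on the opposite strand, it is a direct repeat of AGGTCA with 4 bases between the copies and 3 mismatches in all, the layout of the elements that LXR and retinoid X receptors bind, and both copies are in capitals.
Abca1 upstream: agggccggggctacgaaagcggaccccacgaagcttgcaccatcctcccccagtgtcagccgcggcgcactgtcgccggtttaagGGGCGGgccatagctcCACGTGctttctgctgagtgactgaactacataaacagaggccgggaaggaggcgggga
Abca1 direct repeat: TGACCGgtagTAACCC
Ch25h upstream: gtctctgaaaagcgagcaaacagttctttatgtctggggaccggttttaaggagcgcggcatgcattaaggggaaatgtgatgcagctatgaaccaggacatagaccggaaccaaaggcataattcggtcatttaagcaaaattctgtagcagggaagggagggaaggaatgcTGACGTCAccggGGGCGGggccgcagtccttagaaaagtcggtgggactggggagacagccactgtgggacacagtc
The Ch25h stretch, chr1:241429367-241429616, is the 250 bases before the start, with a cyclic AMP response element (TGACGTCA) and a GC box in capitals. On either strand of the 250 upstream bases, the repeat with up to 3 mismatches occurred in 18.6% of 33469 rat promoters (2.48% with up to 2), the E-box in 5.59%, the cyclic AMP element in 1.59% and the GC box in 30.5%. The motifs were chosen after the sequences were seen, and a match is a description of letters. The same search found the E-box in the Plin2 promoter too, and the GC box in those of Apoe, Plin2 and Fabp7. A TATA box (TATAAA), present in 12.9% of rat promoters, was found in Cd36, Apod and Abca1, in the last outside the printed stretches. The repeat was found in Abca1 alone among the 7 genes.

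Ch25h, which makes the LXR ligand 25-hydroxycholesterol and is known as an interferon-induced gene, rose 4.28-fold from few reads. Controls 1 to 3 held 7, 16 and 13 reads of it, and HI 1 to 3 held 28, 82 and 73, or 0.530, 1.18 and 0.973 CPM against 1.87, 5.27 and 4.42 CPM. HI 1 was the lowest of its group and still above every control. The log2 fold change was 2.098 ± 0.51 (SE, edgeR adjusted p = 0.0430). As 2 of the 3 controls reached the minimum of the low-count filter (0.689 CPM), the gene passed that filter through its HI reads, so its place among the tested genes is not independent of its rise. The call was not made by limma-voom (adjusted p = 0.0713), nor by edgeR without control 1 (0.135), control 2 (0.116), control 3 (0.0831), HI 2 (0.125) or HI 3 (0.106). With control 2, HI 2 and HI 3 left out, and HI 1 alone in its group, its log2 fold change was 1.30.

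Abcg1, which passes cholesterol on to lipoproteins that already hold lipid, differed less. Its levels of 59.0, 43.2 and 64.6 CPM in the controls and 77.9, 88.1 and 84.8 CPM in HI had little spread within HI, with an SD of 5.20 CPM. The groups did not overlap, and the log2 fold change of 0.59 ± 0.16 (SE) had an edgeR adjusted p of 0.0566. Its 95% interval ran from 0.20 to 0.97, below that of Abca1 (1.23 to 2.39), although the difference between the genes was not tested. The log2 fold change was 0.40 without control 2 and 0.67 without control 3 (edgeR adjusted p = 0.131 and 0.0551). With control 2, HI 2 and HI 3 left out, and HI 1 alone in its group, it was 0.33.

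Apoe, the main apolipoprotein of the brain, stood at 901, 599 and 1064 CPM in controls 1 to 3 and at 1637, 1358 and 2072 CPM in HI 1 to 3. Control 2 was the lowest and HI 3 the highest, and the groups did not overlap. The means of 855 ± 236 and 1689 ± 360 CPM (SD, n = 3 each) gave a log2 fold change of 0.98 ± 0.26 (SE), with an edgeR adjusted p of 0.0538. DESeq2 placed the same difference past the threshold (adjusted p = 0.00188), and with the replicate number as a block edgeR gave 0.0305. Without control 2 the log2 fold change was 0.75 and without HI 3 it was 0.81 (edgeR adjusted p = 0.147 and 0.118). Without control 2, HI 2 and HI 3, with HI 1 alone in its group, it was 0.73. Within a library, Apoe had 51.2, 43.6 and 44.5 reads per 100 reads of 10 summed astrocyte markers in the controls and 56.8, 62.3 and 72.2 in HI, a ratio that does not depend on the scaling and whose groups did not overlap. Per 100 reads of 10 summed microglia markers the ratio was 585, 364 and 479 in the controls against 442, 282 and 333 with HI. These values overlapped and leaned the other way, with a microglia sum that was itself higher in every HI library.

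Apod, a lipocalin that binds arachidonic acid and sterols and is made by glia and perivascular cells, was at a low level with a wide spread in HI. The controls held 40, 68 and 67 of its reads and the HI libraries 81, 162 and 346, or 3.03, 5.01 and 5.02 CPM against 5.42, 10.4 and 21.0 CPM. HI 1 barely exceeded the controls, and HI 3 was the highest of all. The log2 fold change was 1.49 ± 0.51 (SE) and the call was not made (edgeR adjusted p = 0.0882). It was 1.84 without HI 1 (edgeR adjusted p = 0.0283) and 0.86 without HI 3 (0.217). With control 2, HI 2 and HI 3 left out, and HI 1 alone in its group, it was 0.43. Markers of mural cells and fibroblasts, 10 genes of which 2 rose and 0 fell, had sums of 242 to 384 CPM among controls. In HI 1 to 3 the sums were 406, 480 and 945 CPM, the same order of libraries as for Apod. The sums of microglia, activated phagocyte, endothelial and choroid plexus markers had this order in HI too, but those of astrocytes and border macrophages did not. The part of any of these cell types in the Apod values was not tested. In bulk tissue, more cells of a type and more RNA per cell cannot be told apart.

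**Figure D2:**
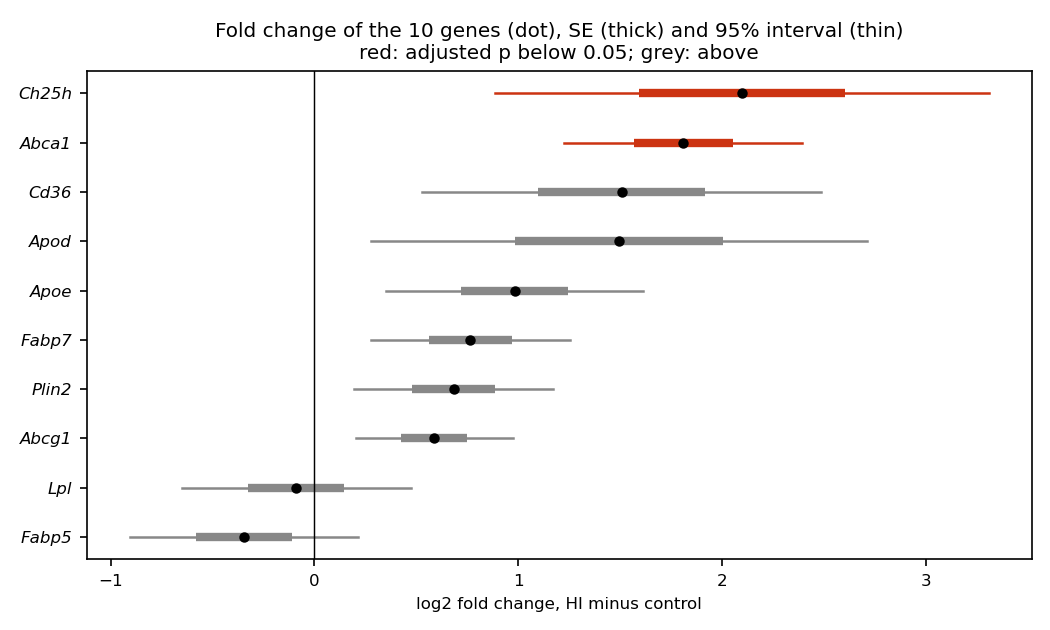
Log2 fold change of HI over control (horizontal axis) for the 10 genes, with the SE as a thick and the 95% interval as a thin line from the edgeR fit. Abca1 and Ch25h, in red, passed the threshold of 0.05, and the intervals of Lpl and Fabp5 span 0.

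Plin2, the perilipin that coats lipid droplets in most cell types, stood at 40.1, 41.7 and 30.6 CPM in the controls and at 45.5, 63.7 and 71.4 CPM in HI. HI 1 lay just above the controls and the other HI libraries well above them. The log2 fold change was 0.68 ± 0.20 (SE, edgeR adjusted p = 0.0665), and 0.84 without HI 1 (edgeR adjusted p = 0.0244). It was 0.52 without control 3 and 0.54 without HI 3 (edgeR adjusted p = 0.138 and 0.163). Without control 2, HI 2 and HI 3, with HI 1 alone in its group, it was 0.36.

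Lpl, which frees fatty acids from the triglycerides of lipoproteins, had nearly equal controls, at 54.9, 55.2 and 56.6 CPM. The HI libraries spread to both sides of them, with HI 1 at 33.7 and HI 2 and HI 3 at 58.2 and 64.8 CPM. The log2 fold change was -0.09 ± 0.24 (SE, edgeR adjusted p = 0.806), with a 95% interval from -0.65 to 0.47. The sign turned with the scaling, to 0.0101 under upper-quartile and 0.11 under total-count scaling, and to 0.14 without HI 1, so no direction is given. With control 2, HI 2 and HI 3 left out, and HI 1 alone in its group, the log2 fold change was -0.73.

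Cd36, a scavenger receptor that also takes up long-chain fatty acids, had few reads. It stood at 0.909, 1.55 and 1.497 CPM in the controls and at 4.68, 2.18 and 4.42 CPM in HI, without overlap and with HI 2 the lowest of its group. The log2 fold change was 1.51 ± 0.41 (SE, edgeR adjusted p = 0.0548). It was 1.27 without control 1 and 1.78 without HI 2 (edgeR adjusted p = 0.167 and 0.0852). With control 2, HI 2 and HI 3 left out, and HI 1 alone in its group, it was 1.95. Some of the Cd36 counts were not whole, so reads appear to have been divided with a similar gene and its values are uncertain.

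The fatty acid binding proteins, small carriers inside the cell, differed from each other. Fabp7, the form of radial glia and astrocytes, stood at 344, 260 and 337 CPM in the controls and at 471, 446 and 680 CPM in HI. All HI libraries were above all controls, with a log2 fold change of 0.76 ± 0.20 (SE, edgeR adjusted p = 0.0534). It passed with the replicate number as a block (edgeR adjusted p = 0.0463) and without HI 1 (0.0480), but not without control 2 (0.165) or HI 3 (0.0883), at 0.61 and 0.55. Without control 2, HI 2 and HI 3, with HI 1 alone in its group, the value was 0.47. Fabp5, found in neurons, glia, endothelium and macrophages, stood at 276, 287 and 157 CPM in the controls and at 172, 187 and 208 CPM in HI. Control 3 lay below all HI libraries and the other controls above them. The log2 fold change was -0.35 ± 0.23 (SE, edgeR adjusted p = 0.325), and it was -0.61 without control 3 (edgeR adjusted p = 0.0384), the library with fewer cortical neuron reads than the other controls. Radial glia and progenitor markers, 8 genes of which 1 rose and 0 fell, overlapped between the groups, with sums of 1366 to 1939 CPM for control and 1468 to 1659 CPM for HI.

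Across the libraries, HI 3 was the highest HI library for 7 of the 10 genes and the lowest for 0. HI 1 was the lowest for 6 genes, and HI 2 for the other 4, Apoe, Abca1, Cd36 and Fabp7. Relative to the control mean, Abca1 stood at 2.98, 2.76 and 4.78 in HI 1 to 3, Apoe at 1.92, 1.59 and 2.42, and Fabp7 at 1.503, 1.42 and 2.17, the same order of libraries in all 3 genes. Ch25h, at 2.09, 5.90 and 4.95, had another order, with HI 2 on top. Among the controls, control 2 had the lowest value for Apoe, Abca1, Abcg1 and Fabp7.

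Markers of microglia and macrophages, among the cells that make these proteins, also differed between the groups. Of 10 microglia markers 8 rose and 0 fell, and their sum ranged from 154 to 222 CPM among controls and from 370 to 621 CPM with HI. The 2 not called were P2ry12 and Tmem119, at log2 fold changes of -0.13 and 0.47. C1qa, C1qb and C1qc rose most, at 2.45, 2.37 and 2.90, and are part of the microglia sum. These microglia genes were named after their values were seen. Of 10 genes of activated phagocytes 7 rose and 0 fell, with sums of 541 to 603 and 928 to 2065 CPM. Of 7 border macrophage markers 6 could be tested, and 3 rose and 0 fell, with sums of 10.1 to 20.5 and 21.2 to 65.0 CPM. The low-count filter was passed through HI reads by 3 of the 7 phagocyte genes that rose (Itgax, Clec7a and Lgals3) and by 2 of the 3 border macrophage genes (Folr2 and Clec10a), named after their values were seen, but by none of the 8 microglia genes. Of 10 astrocyte markers 1 rose and 0 fell, and their sums overlapped, with a range of 1376 to 2391 CPM in controls against 2179 to 2883 CPM with HI. No list had a marker at 0 in all libraries, though the phagocyte integrin Itgax was at 0 in control 1 and the macrophage chemokine Pf4 in controls 1 and 2 and in HI 2. Per 100 reads of the summed microglia markers, the controls had 32.7, 23.3 and 23.1 Abca1 reads and the HI libraries 37.6, 26.7 and 35.9, which overlapped. Per 100 reads of the summed astrocyte markers Abca1 had 2.86, 2.78 and 2.15 against 4.82, 5.92 and 7.77, without overlap. Of the 10 genes, 2 (Apoe and Abca1) had HI above all controls relative to the astrocyte sum and 8 overlapped. Relative to the microglia sum 0 had HI above, 5 (Abcg1, Plin2, Lpl, Fabp5 and Fabp7) had HI below all controls, and 5 overlapped. As the microglia sum was itself higher in every HI library, a gene at an unchanged level has a lower ratio in HI. No share over all genes was computed for either ratio, so these counts are not read as a trait of the 10 genes. The part of these cell types in the values of the 10 genes was not tested further.

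**Figure D3:**
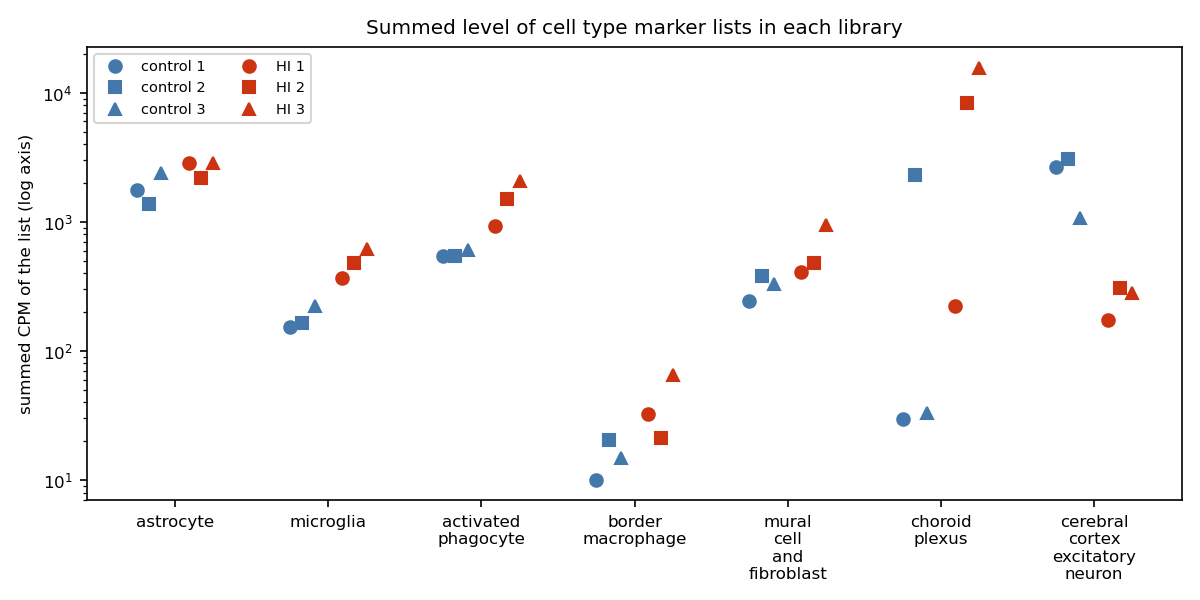
Summed CPM (log axis) of cell type marker lists in each library, with controls in blue, HI in red and marker shape for the replicate number. The microglia and phagocyte sums are higher in every HI library, and the choroid plexus sum separates control 2, HI 2 and HI 3 from the other libraries.

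Of 100 further genes of lipid handling, in 5 lists, 97 had a row and 76 could be tested. Among these 10 rose and 15 fell, where 6.83% and 7.04% of all tested genes did. Of the 10 that rose, 4 (Msr1, Olr1, Plin4 and Plin5) passed the low-count filter through their HI reads, so the count of rises is not read against that share. None of the 15 that fell did so, and the median log2 fold change was 0.14. All 25 called genes kept their sign under the other 3 scalings. As for the 10 genes, no call was left without control 1, control 2 or HI 2. The unadjusted edgeR p was then below 0.05 for 37, 38 and 38 genes. There were 8 calls without HI 3 and 33 without HI 1, where all tested genes had 644 and 3689.

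**Figure D4:**
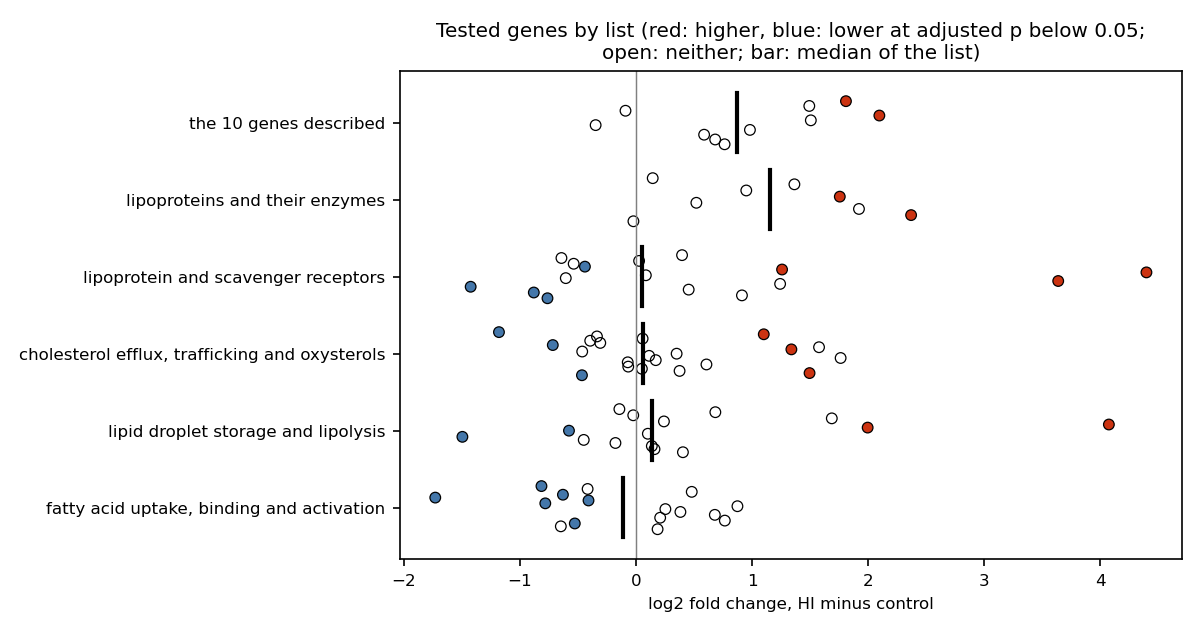
Log2 fold change (horizontal axis) of each tested gene by list, with genes that rose in red, genes that fell in blue, the others open and the list median as a bar. The calls in the list of fatty acid uptake, binding and activation are all falls, 6 of 16, and those among lipoproteins and their enzymes are both rises.

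Of 20 genes of lipoproteins and their enzymes 8 could be tested, and 2 rose and 0 fell. Angptl4, a secreted inhibitor of lipoprotein lipase, rose 5.17-fold, from 13.9, 14.1 and 19.4 CPM to 42.5, 91.0 and 112 CPM (edgeR adjusted p = 0.0226). Pltp, which moves phospholipid between lipoproteins, rose 3.38-fold, from 42.3, 61.5 and 42.2 CPM to 91.1, 145 and 257 CPM (edgeR adjusted p = 0.0362). Clu, the apolipoprotein J of the brain, was not called, at a log2 fold change of 1.92 ± 0.59 (edgeR adjusted p = 0.0706). Its levels of 168, 296 and 193 CPM in the controls and 241, 911 and 1337 CPM in HI, like those of Pltp, were highest, within each group, in the libraries with the most choroid plexus reads, whose part in either gene was not tested. Mttp, which loads lipid onto ApoB, had 1.37 ± 0.47 (edgeR adjusted p = 0.0896). The plasma apolipoproteins Apoa1, Apoa2, Apoa4, Apoa5, Apob, Apoc2, Apoc3, Apoc4, Apoh and Apom had too few reads to test.

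Among lipoprotein and scavenger receptors 16 of 17 could be tested, and 3 rose and 4 fell. Sort1, a sorting receptor of neurons, fell from 353 ± 32.4 to 192 ± 14.7 CPM (SD, n = 3), to 0.544 of the control level (edgeR adjusted p = 0.0215). Lrp8, a receptor for ApoE and reelin, and Scarb1, the HDL receptor, fell too, with log2 fold changes of -0.76 ± 0.14 and -0.44 ± 0.09 (edgeR adjusted p = 0.0282 and 0.0317). The receptors that rose, Olr1, Msr1 and Trem2, are scavenger or lipid receptors, and which cells their reads came from was not tested. Olr1 rose from 0.303, 0.368 and 0.524 CPM to 3.21, 5.78 and 6.18 CPM, and Msr1 from 0.151, 0.663 and 0.524 CPM to 3.28, 12.98 and 12.5 CPM (edgeR adjusted p = 0.0197 and 0.0238). Both passed the low-count filter through their HI reads, and with 9 reads or fewer in a control the size of their folds is uncertain. Trem2, a lipid-sensing receptor of microglia, had a log2 fold change of 1.26 ± 0.31 (edgeR adjusted p = 0.0442). Lrp1, the large ApoE receptor, stood at 972 and 991 CPM (log2 fold change 0.03 ± 0.12, edgeR adjusted p = 0.887). Lrp8, Scarb1, Trem2 and Lrp1 were chosen after their values were seen.

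Of 21 genes of cholesterol efflux, trafficking and oxysterols, all tested, 3 rose and 3 fell. Cyp46a1, the neuronal enzyme that makes 24-hydroxycholesterol, fell from 116 ± 12.6 to 51.3 ± 9.49 CPM (SD, n = 3, edgeR adjusted p = 0.0215), and as some of its counts were not whole its values are uncertain. Gramd1a and Gramd1b, which carry cholesterol from the plasma membrane to the endoplasmic reticulum, fell to 0.609 and 0.725 of the control level (edgeR adjusted p = 0.0232 and 0.0370). Rxra, a partner of LXR, rose 2.82-fold, from 4.32, 5.23 and 5.47 CPM to 11.3, 13.8 and 17.3 CPM (edgeR adjusted p = 0.0219). Npc2, which binds cholesterol in the lysosome, rose 2.53-fold, and Soat1, which esterifies it for storage, 2.15-fold (edgeR adjusted p = 0.0367 and 0.0466). The LXR genes themselves were not called, with log2 fold changes of 1.58 ± 0.42 for Nr1h3 (edgeR adjusted p = 0.0539) and 0.05 ± 0.21 for Nr1h2 (0.878). The transporter Abcg4, a relative of Abcg1 in neurons, stood at 127 CPM in the controls and 92.4 CPM in HI (log2 fold change -0.46 ± 0.13, edgeR adjusted p = 0.0629). Gramd1b, Soat1, Nr1h3, Nr1h2 and Abcg4 were chosen after their values were seen.

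Of 15 tested genes of lipid droplet storage and lipolysis 2 rose and 2 fell. The perilipins Plin4 and Plin5 rose from low levels, Plin4 from 8, 2 and 4 reads to 54, 95 and 138 reads and Plin5 from 12, 4 and 6 to 30, 28 and 47 reads (edgeR adjusted p = 0.0215 and 0.0427). Both passed the low-count filter through their HI reads, so the size of these folds is uncertain. Mgll, which splits monoglycerides including an endocannabinoid, fell to 0.671 and Pnpla3, a lipid droplet hydrolase, to 0.355 of the control level (edgeR adjusted p = 0.0349 and 0.0383).

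Of 16 tested genes of fatty acid uptake, binding and activation 0 rose and 6 fell. Mfsd2a, the transporter that brings docosahexaenoic acid across the blood-brain barrier, fell from 19.9, 22.8 and 21.1 CPM to 8.56, 3.92 and 6.79 CPM, to 0.302 of the control level (edgeR adjusted p = 0.0238). Endothelial markers, 8 genes of which 1 rose and 0 fell, had sums that overlapped, at 237 to 320 CPM for control and 197 to 417 CPM for HI. The log2 fold changes of these markers ran from -0.66 to 1.28, so the sum does not stand for each of them. Fabp3, the heart-type relative of Fabp5 and Fabp7 that neurons also make, fell to 0.569 (edgeR adjusted p = 0.0323). The acyl-CoA synthetases Acsl3 and Acsl5, which activate fatty acids, fell to 0.647 and 0.694 (edgeR adjusted p = 0.0262 and 0.0392), and Acsl1 and Acsl6, named after their values were seen, to 0.754 and 0.582 (0.0417 and 0.0489). With total counts or upper-quartile factors this list had 3 falls and 1 rise. General neuron markers, 8 genes of which 3 fell and 0 rose, had sums of 6470 to 8443 CPM for control against 2608 to 4797 CPM for HI, and their part in these falls was not tested.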

How the data were processed

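The deposited table holds estimated counts per gene (read counts, per the file headers, that are not all whole). HISAT2 2.1.0, SAMtools 1.10, StringTie 2.2.1 and the assembly Rnor 6.0 are listed per the submitters' processing notes. For the counting step, its annotation and its use of strand, nothing is given in the sources used here. Entries that were not whole to within 1e-09 made up 8.87% of the table, in 2410 genes. The 6 columns were matched to samples by name, although that of control 1 is misspelled. No pair of libraries was a duplicate by a chi-square test of counts.

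Counts were rounded, filtered with filterByExpr (minimum count 10), scaled by TMM and tested across all 14959 genes with the two-sided quasi-likelihood F test of edgeR 4.0.16 (R 4.3.3, limma 3.58.1), with group as the only term. CPM are given as mean ± SD over 3 libraries, and SE are derived from the F statistic. Floors cover counting error only. DESeq2 1.42.0 and limma-voom were alternatives, with other scalings and filters, a replicate block and each library left out. The fits were tested on simulated data with less spread between libraries than these data and no differences in tissue make-up. That test therefore does not show how they perform here. Named genes are the 10 and, from each pathway list, the 4 tested genes with the smallest p. 1 of these genes is not reported here. The genes and lists were chosen with earlier results of these data known.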

Additional observations from a re-analysis of the deposited data

How the results depend on the processing

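Of the 10 genes 9 kept their sign under all 15 alternatives, the exception being Lpl. Its log2 fold change was 0.0101 with upper-quartile factors, 0.11 with total counts and -0.27 to 0.14 leaving out 1 library (0.14 without HI 1). With control 2, HI 2 and HI 3 left out it was -0.73. The number called among the 10 genes was 6 with upper-quartile factors, 7 with total counts, 8 with DESeq2, 1 with limma-voom, 4 with the replicate number as a block, and 0 to 5 leaving out 1 library. Under total counts the all-gene median moved by 0.19, and relative to it Apoe stood at 0.95, as with TMM (0.94). Over all genes DESeq2 called 4200 and limma-voom 1371, and leaving out 1 library gave 0 to 3689 calls. The share of calls higher in HI was 49.2%, against 64.3% for upper-quartile factors and 74.7% for total counts. Of the lipid lists DESeq2 called 38 genes, and leaving out 1 library gave 0 to 33 calls, while the share higher was 40.0%, 56.0% and 67.9% under these scalings. The setting without control 2, HI 2 and HI 3 was chosen after seeing the data. It leaves HI 1 alone in its group and assumed to vary like the controls, so no calls are given for it. The median log2 fold change in it was 0.45 for the 10 genes, 0.02 for the lists and -0.000317 for all genes. Same-numbered libraries did not deviate together (r = 0.24, 0.07 and -0.15 across genes), so the numbers are not taken as a pairing. With the block 1723 genes were called in all and 17 of the lists. The cause of these differences was not tested. Depth limits Ch25h, Cd36 and Apod most.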
